A study of Mus musculus with 54 samples.

Results

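The genes described here encode the proteasome, its interferon-inducible catalytic subunits and its regulators, in mouse peritoneal macrophages. Members were the protein-coding genes whose symbol is Psma, Psmb, Psmc, Psmd, Psme or Psmf followed by a digit. The rule found 46 of the 39179 counted genes, and 3 pseudogenes with such symbols were left out. They were set out in 3 classes, namely 31 constitutive subunits of the 26S proteasome, 5 inducible genes (Psmb8, Psmb9, Psmb10, Psme1 and Psme2) and 10 others. The others were the 19S assembly chaperones Psmd5, Psmd9 and Psmd10, the activators Psme3 and Psme4, the inhibitor Psmf1, the tissue-specific subunits Psma8 and Psmb11, the retrocopy Psme2b and Psmc3ip. Psmc3ip encodes a recombination factor and is no subunit of the proteasome. Of the 46, 45 passed the filter on low counts in each experiment. Psmb11, the thymus-specific catalytic subunit, did not pass in either.

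Macrophages were elicited by thioglycolate in the peritoneum of C57BL/6 mice and sequenced in 2 experiments. In the polarization experiment, cells of 3 mice were left without cytokine (M0), given 100 ng/ml LPS with 50 ng/ml IFNγ (M1-like) or given 10 ng/ml IL-4 (M2-like) for 24 h, and 2 technical libraries of 50-base single-end reads per culture were summed. In the reprogramming experiment, 12 conditions of 3 libraries each were read as paired ends of 150 bases: M0, M1-like and M2-like cells without transfection, the same 3 after mock transfection, and M2-like cells given a negative siRNA pool (M2 neg), a pool against E2f1, Myc, Pparg or Stat6, or all 4 pools together (iM1). Cells of this experiment were polarized for 24 h with the same agents, and transfected cells were harvested 48 h after transfection in medium without IL-4. The sources used here do not state whether LPS and IFNγ remained on the transfected M1-like cells, nor whether the 3 replicates came from separate mice, so that the p-values of the second experiment measure the spread between libraries. Values of the 2 experiments were tested separately because they differ in read type, and the first is called the 24 h experiment below.

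The proteasome degrades ubiquitylated proteins. Its 20S core is a barrel of alpha rings, which gate the entry, and beta rings, of which the subunits encoded by Psmb5, Psmb6 and Psmb7 hold the proteolytic sites. The 19S cap has a base with ubiquitin receptors and the Psmc ATPases that unfold substrates, and a lid that deubiquitylates them. In cells exposed to interferon, Psmb8 (LMP7), Psmb9 (LMP2) and Psmb10 (MECL-1) replace Psmb5, Psmb6 and Psmb7 in newly built cores, and the PA28 activator made from Psme1 and Psme2 can cap them. This immunoproteasome is best known for producing peptides for MHC class I.

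The inducible genes lie in 3 places of the GRCm38 assembly. Psmb8 (ENSMUSG00000024338, chr17:34197721-34201454, plus strand) and Psmb9 (ENSMUSG00000096727, chr17:34181987-34187764, minus strand) are in the MHC region, where exons of Psmb9 overlap Tap1 on the opposite strand by 212 bases. Psme1 (ENSMUSG00000022216, chr14:55578123-55581529, plus strand) and Psme2 (ENSMUSG00000079197, chr14:55587441-55591113, minus strand) are neighbours, and Psmb10 (ENSMUSG00000031897) is at chr8:105935735-105938444 on the minus strand. Psme2b (ENSMUSG00000078153), at chr11:48945354-48946190 on the minus strand, carries nearly the same coding sequence as Psme2. Over 720 coding bases the pair differed at 5, an identity of 99.3%. The stretch of coding bases 442 to 591 is printed because it holds 3 of those differences, which are the capitals.
Psme2: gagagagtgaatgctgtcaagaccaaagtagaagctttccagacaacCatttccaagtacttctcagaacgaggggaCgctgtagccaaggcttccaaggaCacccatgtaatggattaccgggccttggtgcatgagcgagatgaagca
Psme2b: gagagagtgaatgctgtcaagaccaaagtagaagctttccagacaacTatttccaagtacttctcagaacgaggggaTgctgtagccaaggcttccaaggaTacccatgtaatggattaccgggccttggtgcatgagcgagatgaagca
Of all 50-base windows of the Psme2 transcript, 59.3% also occur in another gene, mostly Psme2b, and of all 150-base windows 32.5% do. In M0 cells at 24 h Psme2 took 28.8% of the CPM (counts scaled to the library size after TMM normalization) of the pair. In M0 cells of the reprogramming experiment it took 3.36%, while the sum of the pair was 104 and 103 CPM. The split of reads between these loci therefore moved with the experiment, and values of Psme2 are given below with those of the summed pair.

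Summed counts per culture of the 24 h experiment ranged from 39577911 to 59443987, and counts per library of the reprogramming experiment from 13421854 to 19704195. Each siRNA target was below its level in M2 neg in its own knockdown, where E2f1 had 25.2%, Myc 38.0%, Pparg 21.9% and Stat6 27.3% of its mean CPM in M2 neg, and in iM1 the same genes had 60.4%, 39.6%, 28.3% and 54.0%. The 5 macrophage markers summed to between 6041 and 18090 CPM in every library. Their sum was lower in M1-like than in M0 cells, but not each of them was: at 24 h Lyz2, Cd68 and Itgam were lower by edgeR, Adgre1 was higher (log2 fold change 1.79) and Csf1r was at -0.03 and not called. Markers of T and NK cells and of eosinophils summed to at most 1.14 CPM, and the neutrophil list to between 3.10 and 14.0 CPM with Ly6g, S100a9 and Mpo under 1 CPM. B cell markers summed to between 4.26 and 13.8 CPM at 24 h, and mesothelial and fibroblast markers to between 5.11 and 12.3 CPM. In bulk RNA, fewer cells of a type and less RNA per cell cannot be told apart.

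Levels of the constitutive subunits spanned a wide range in unstimulated cells. In M0 at 24 h their means lay between 21.2 and 372 CPM with a median of 67.6. Per kilobase of transcript the lid subunit Psmd8 (241 ± 6.82 CPM, SD, n = 3) and the catalytic subunit Psmb6 (182 ± 4.39) were highest. Psma7 (83.1 ± 3.46), Psma1 (83.0 ± 3.95), Psmb4 (82.1 ± 2.40) and Psma6 (80.3 ± 4.68) followed and did not differ beyond their spread, and the alpha subunit Psma3 (9.46 ± 0.366) was lowest. In M0 of the reprogramming experiment Psmb6 (299 ± 7.29) was the highest of the class. The inducible genes had means between 26.4 and 54.1 CPM in M0 at 24 h, Psmb9 the lowest and Psme1 the highest.

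The first question was what LPS with IFNγ did to these genes within a day. In M1-like cells at 24 h all 5 inducible genes were 5.68 to 9.24 times as high as in M0, and all 31 constitutive subunits rose as well, by a median of 0.92 on the log2 scale. Psmb8, which provides the chymotrypsin-like site of the immunoproteasome, was at 53.8, 51.4 and 52.2 CPM in M0 cells of mice 1, 2 and 3 and at 413, 428 and 495 CPM in M1-like cells. Psmb9 was at 27.9, 26.4 and 24.9 CPM in M0 and at 229, 241 and 262 CPM in M1-like cells. Psmb10 was at 56.9, 52.5 and 49.0 CPM in M0 and at 264, 280 and 356 CPM in M1-like cells. For each of these catalytic subunits every M1-like culture lay above every M0 culture, and the culture of mouse 3 was the highest. The log2 fold changes were 3.08 ± 0.09 (SE; edgeR adjusted p = 1.62e-11) for Psmb8, 3.21 ± 0.10 (adjusted p = 4.76e-11) for Psmb9 and 2.51 ± 0.13 (adjusted p = 3.80e-09) for Psmb10. The PA28 genes rose by similar amounts. Psme1, the alpha subunit, went from 55.4, 54.7 and 52.2 CPM to 383, 402 and 447 CPM (log2 fold change 2.92 ± 0.07, edgeR adjusted p = 4.73e-12). Psme2, the beta subunit, went from 29.7, 30.4 and 29.2 CPM to 236, 266 and 297 CPM (3.16 ± 0.08, edgeR adjusted p = 6.95e-12). Neither PA28 gene overlapped between the groups. The summed pair of Psme2 and Psme2b gave 3.22 ± 0.08 in the same test.

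**Figure D1:**
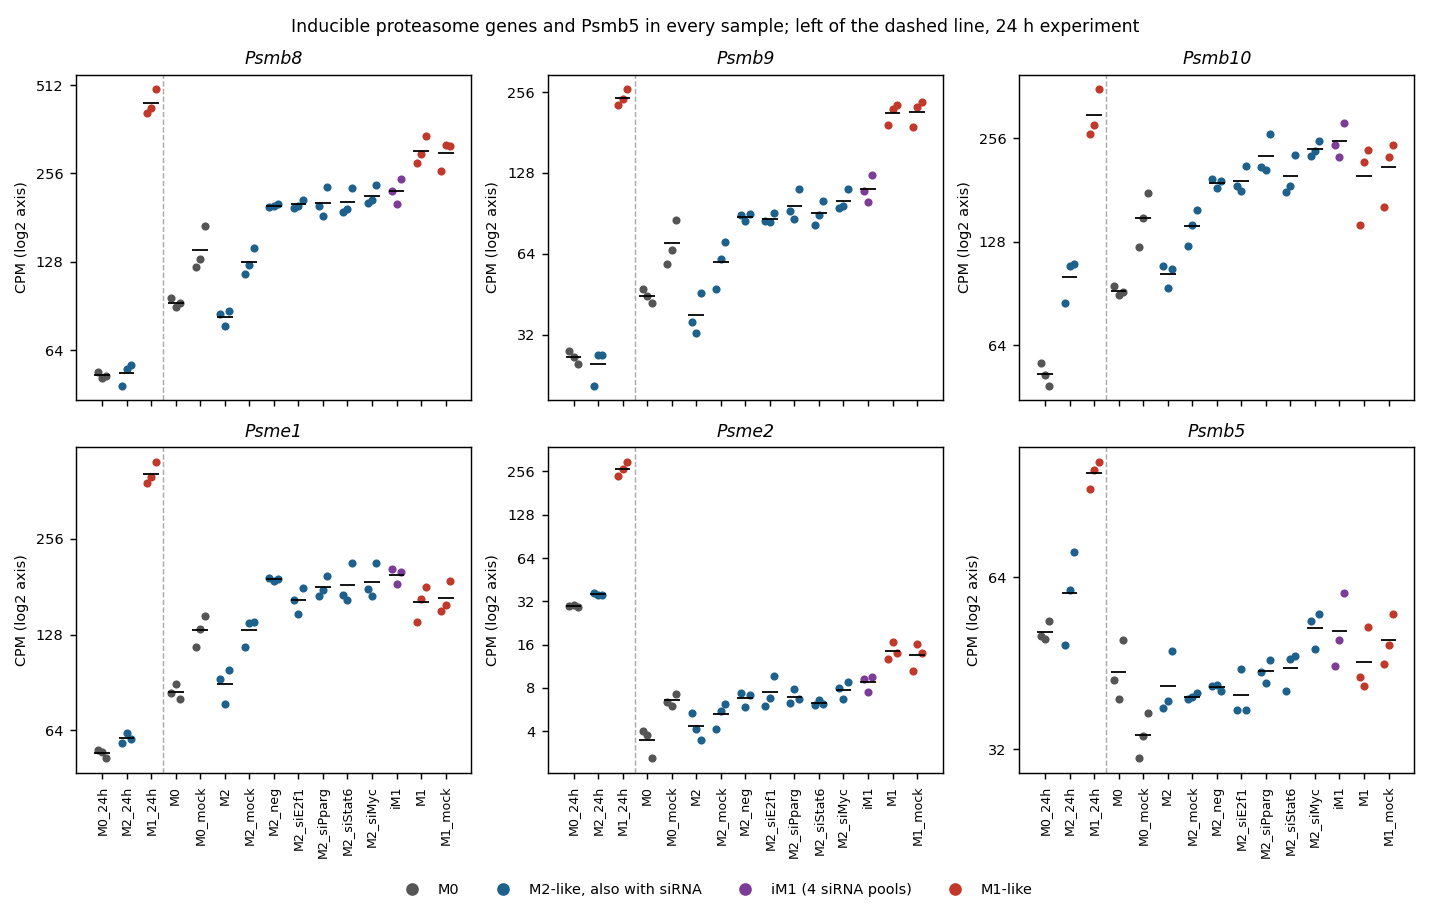
Level of the 5 inducible genes and of the constitutive Psmb5 in CPM (log2 axis) in each of the 15 conditions, with 1 point per replicate, a bar at the mean of 3 and a dashed line between the experiments. Untransfected M1-like cells stand above untransfected M0 for all 5 inducible genes in both experiments, and the transfected M2-like groups stand above untransfected M2-like cells for Psmb8, Psmb9, Psmb10 and Psme1.

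The constitutive subunits moved in 1 direction at 24 h. All 31 were higher in M1-like than in M0 cells by edgeR at an adjusted p of 0.05, with log2 fold changes from 0.30 (Psmd8) to 2.0 (Psma5), where 35.4% of the 16110 genes tested were called higher and 37.5% lower and the median over all genes was -0.04. The 3 highest values of the class were those of alpha subunits, which form the gate of the core. Psma5 went from 21.5, 20.3 and 21.8 to 77.9, 84.8 and 91.0 CPM (log2 fold change 2.0 ± 0.08, edgeR adjusted p = 4.70e-10), Psma4 had a log2 fold change of 1.66 ± 0.07 and Psma7 one of 1.62 ± 0.08. The median of the 7 alpha subunits was 1.23 and that of the 3 catalytic beta subunits also 1.23, whose log2 fold changes were 0.92 for Psmb5, 1.61 for Psmb6 and 1.23 for Psmb7. The 4 beta subunits without a proteolytic site had a median of 0.92, the 6 ATPases of the base 0.85, the 3 other base subunits 0.68 and the 8 lid subunits 0.91. Summed over their genes, the constitutive subunits went from 2550 ± 33.1 to 4832 ± 154 CPM (SD, n = 3) and the inducible genes from 216 ± 8.15 to 1666 ± 171 CPM. Scaling by library size alone moved the median of all genes to -0.46 and that of the constitutive genes to 0.49, so that the distance between the medians was 0.96, and gave 3226 genes higher and 9543 lower in place of 5703 and 6048. Against M2-like cells of the same mice, M1-like cells again had all 31 constitutive and all 5 inducible genes higher (34.6% of all genes were), with medians of 0.69 and 2.89, and library size alone gave 3222 genes higher and 9795 lower.

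**Figure D2:**
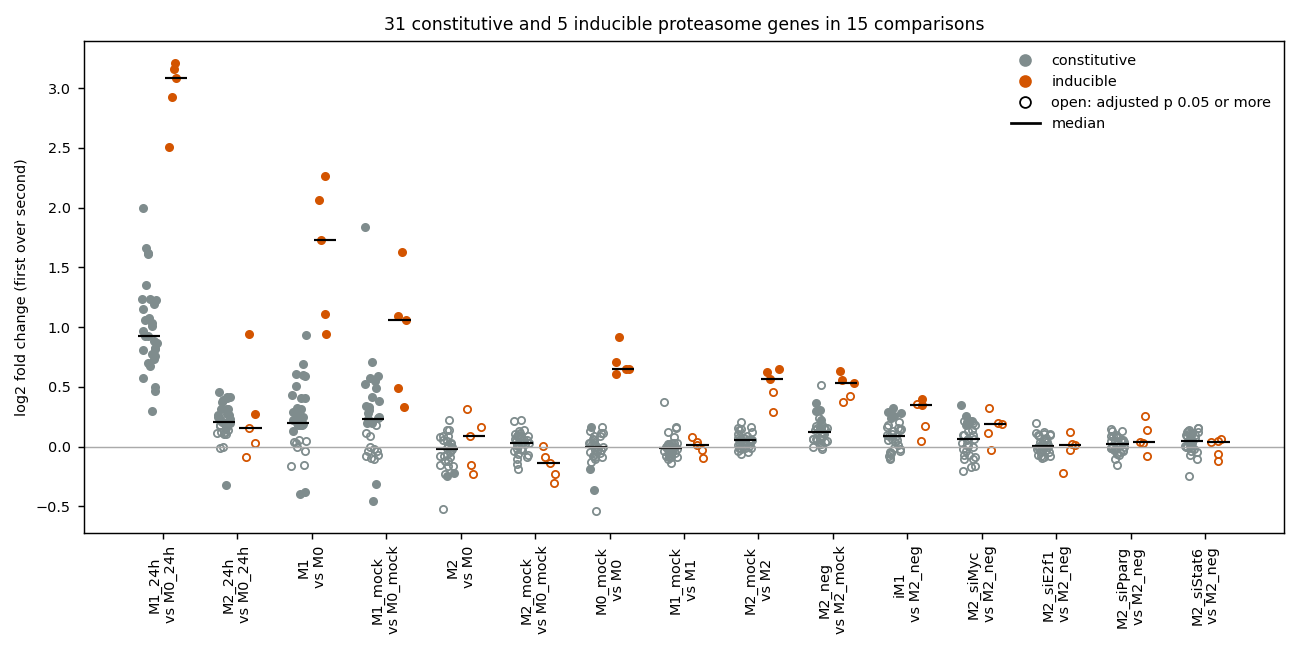
Log2 fold change of each constitutive and inducible gene against its control (vertical axis) for the main comparisons (horizontal axis), coloured by class, with filled points for calls by edgeR at an adjusted p of 0.05 and a line at the median of each class. The constitutive genes lie between 0.30 and 2.0 for M1-like against M0 at 24 h, and have a median of 0.09 for iM1 against M2 neg.

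IL-4 gave smaller differences at 24 h. Of the inducible genes, Psmb10 was at 85.1, 109 and 110 CPM in M2-like cells, above the 56.9, 52.5 and 49.0 CPM of M0 in all 3 mice, a 1.92-fold difference (log2 0.94 ± 0.12, edgeR adjusted p = 0.000211). Psme2 was higher by 0.27 ± 0.08 on the log2 scale (edgeR adjusted p = 0.0220), a call that was lost when any of the 3 M0 cultures was left out, which left 1 inducible call. The summed pair with Psme2b gave 0.29 ± 0.07 (edgeR adjusted p = 0.0111). Psmb8 at 0.03, Psmb9 at -0.08 and Psme1 at 0.16 did not pass (adjusted p = 0.811, 0.559 and 0.102). Among the constitutive genes 18 were higher and 1 lower, against 13.5% and 14.4% of all genes. All 6 ATPases and 6 of 7 alpha subunits were among the 18, and 1 of 3 catalytic subunits, Psmb7 with 0.23 ± 0.05. None of the 4 beta subunits without a proteolytic site and none of the 3 other base subunits was called. The former had log2 fold changes from 0.10 (Psmb4) to 0.20 (Psmb3). The latter had values from -0.0009 (Psmd2) to 0.12 (Psmd1), and the called lid subunit Psmd13 had 0.16. Without M2 replicate 1, Psmb5 (0.36) and Psmb6 (0.22) were called as well. The 3 with the highest log2 fold changes were the alpha subunit Psma3 (0.46 ± 0.06), the ATPase Psmc6 (0.42 ± 0.08) and the lid deubiquitylase Psmd14 (0.41 ± 0.06). Psmd8, a lid subunit, was lower by edgeR (log2 fold change -0.32 ± 0.06, adjusted p = 0.00159). With the mouse as a block, 1 call was lost, that of the lid subunit Psmd13.

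In the reprogramming experiment M1-like cells again had all 5 inducible genes above M0, while the constitutive subunits split. Psmb8 was at 96.1, 89.5 and 92.4 CPM in M0 and at 278, 298 and 342 CPM in M1-like cells. Psmb9 was at 47.2, 44.5 and 42.0 CPM in M0 and at 193, 220 and 229 CPM in M1-like cells. Psmb10 was at 95.2, 89.5 and 91.8 CPM in M0 and at 143, 219 and 236 CPM in M1-like cells. None of the 3 overlapped between the groups, and for Psmb10 replicate 1 of the M1-like cells stood well below the others. The log2 fold changes were 1.73 ± 0.11 for Psmb8, 2.26 ± 0.14 for Psmb9 and 1.11 ± 0.15 for Psmb10 (edgeR adjusted p = 7.13e-15, 2.31e-15 and 1.52e-07). Psme1 rose from 83.7, 89.3 and 80.1 to 140, 166 and 180 CPM (0.94 ± 0.12, edgeR adjusted p = 2.23e-08). Psme2, with few of the reads of its pair here, rose from 4.03, 3.78 and 2.59 to 12.8, 16.7 and 14.0 CPM (2.06 ± 0.20, edgeR adjusted p = 1.15e-10), and the summed pair gave 1.51 ± 0.13. Both PA28 genes were apart between the groups. Markers of other cells moved with this comparison. The 4 B cell markers summed to between 8.73 and 31.1 CPM in M0 and between 0.672 and 1.47 CPM in M1-like cells, where each was under 1 CPM. Mesothelial and fibroblast markers summed to between 49.3 and 90.8 CPM in M0 and between 14.7 and 35.9 CPM in M1-like cells, and the part of either list in these results was not tested.

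Of the 31 constitutive subunits, 19 were higher and 2 lower in these M1-like cells (29.0% and 28.7% of the 14172 genes tested), with a median of 0.20 on the log2 scale. Calls fell on 6 of 7 alpha subunits, 4 of 4 beta subunits without a proteolytic site and 5 of 8 lid subunits, and on none of the 3 catalytic beta subunits. Psmb5 was at 42.4, 39.2 and 49.7 CPM in M0 and at 42.8, 41.2 and 52.5 CPM in M1-like cells, groups that overlapped (log2 fold change 0.06). Psmb6 gave 0.18 (adjusted p = 0.0612) and Psmb7 -0.04. Psmb6 was called with library size alone (0.27), with the replicate number as a block (0.17) and without M1 replicate 2 (0.24). The 3 with the highest calls were Psma5 (0.93 ± 0.23), the beta subunit Psmb3 (0.69 ± 0.13) and Psma1 (0.61 ± 0.07). The 2 lower genes were both in the base of the 19S cap, namely the ATPase Psmc5 with a log2 fold change of -0.40 ± 0.10 (edgeR adjusted p = 0.00139) and the scaffold Psmd1 with -0.38 ± 0.08 (edgeR adjusted p = 9.93e-05). Psmc5 was at 98.8, 97.1 and 92.0 CPM in M0 and at 58.1, 81.4 and 78.7 CPM in M1-like cells. Without M1 replicate 3 the lower calls among the constitutive genes were 4. The 19 higher calls became 13 to 18 with 1 library left out. Levels of Psma5 and Psmb3 differed between the experiments more than those of the class: M0 cells had 21.2 and 1.39 CPM of Psma5 in the 24 h and the reprogramming experiment, and 25.8 and 5.57 CPM of Psmb3. Of the 50-base windows of these 2 transcripts 55.4% and 55.8% also occur in other genes. Of their 150-base windows, the read length of the reprogramming experiment, 14.3% and 3.24% do. The part of shared sequence in their levels was not tested.

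**Figure D3:**
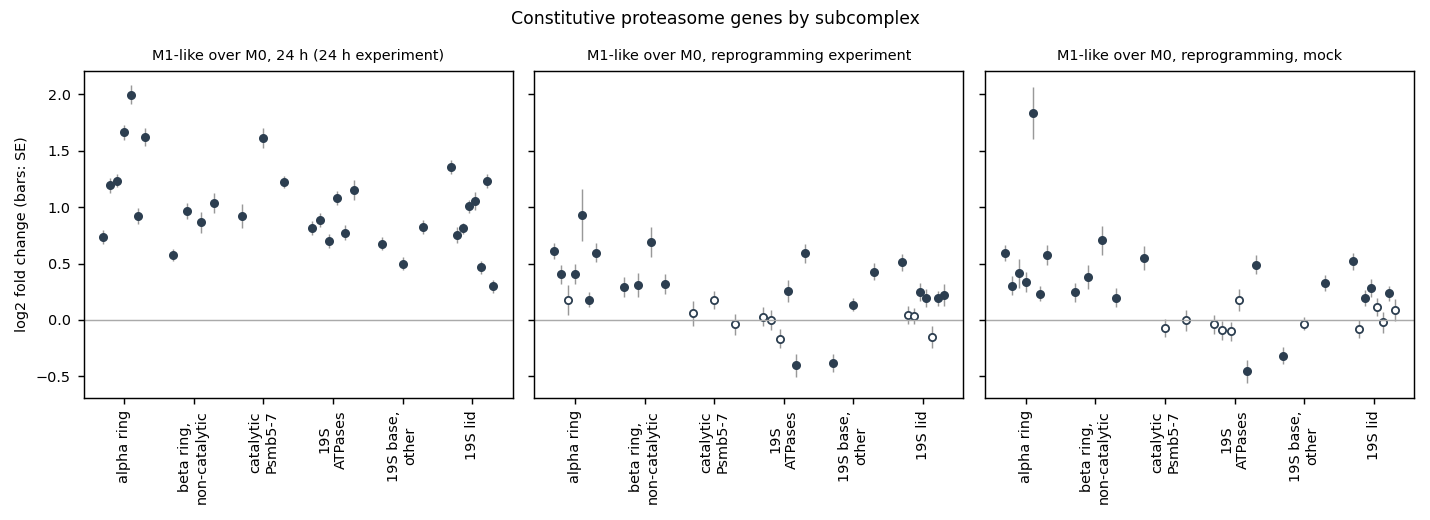
Log2 fold change of M1-like over M0 for each constitutive subunit by subcomplex, in the 24 h experiment, without transfection and after mock transfection. Bars are the SE, filled points are calls by edgeR at an adjusted p of 0.05 and open points are genes not called. The medians of the subcomplexes at 24 h lie between 0.68 and 1.23, and the 3 catalytic beta subunits have a median of 0.06 in the untransfected cells of the reprogramming experiment.

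IL-4 polarized cells of this experiment had no inducible gene past the threshold against M0. Psmb10 was at 109, 94.0 and 107 CPM against 95.2, 89.5 and 91.8 CPM (log2 fold change 0.16 ± 0.15, edgeR adjusted p = 0.483). The lid subunits Psmd13 (-0.25 ± 0.07) and Psmd7 (-0.22 ± 0.07) were lower and no constitutive subunit was higher, where 9.19% and 10.7% of all genes were called. DESeq2 called 1 constitutive gene higher, Psmc6, and at an unadjusted p under 0.05 there were 1 higher and no inducible gene. Without M0 replicate 3 or M2 replicate 2 the lower calls became 0, without M0 replicate 1 or M2 replicate 1 they became 1, and with library size alone, under which 960 genes were higher and 2505 lower, they became 7. After mock transfection no constitutive or inducible gene was called between M2-like and M0 cells by edgeR (3.83% of all genes in either direction), and at an unadjusted p under 0.05 there were 1 higher and 1 lower constitutive gene and no inducible gene. Psmc3ip, the member that is no subunit, was lower there by edgeR (log2 fold change -0.91 ± 0.26, adjusted p = 0.0420). That call was lost when any 1 of the compared libraries was left out (edgeR adjusted p from 0.0643 to 0.201). It was also lost without the filter (0.0893) and with the compared groups alone (0.183).

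Mock transfection itself went with higher levels of the inducible genes in M0 cells and not in M1-like cells. Psmb8 was at 123, 131 and 169 CPM in mock-transfected M0 against 96.1, 89.5 and 92.4 CPM without transfection (log2 fold change 0.60 ± 0.11, edgeR adjusted p = 0.000101). Psmb9 was higher by 0.65 ± 0.14, Psmb10 by 0.71 ± 0.15, Psme1 by 0.65 ± 0.12 and Psme2 by 0.91 ± 0.21, all 5 of them past the threshold where 11.7% of all genes were called higher and 8.66% lower. The summed pair of Psme2 and Psme2b gave 0.60 ± 0.12. The labels give a harvest time after transfection for transfected cells only, so transfection and time in culture cannot be told apart. For each of the 5 the lowest mock-transfected library lay above the highest untransfected one. Among the constitutive genes only Psmd2 (0.16 ± 0.06) was higher and only Psmb5 (-0.37 ± 0.11) and Psma6 (-0.19 ± 0.07) were lower. The call of Psmd2 was kept only without M0 mock replicate 3, and the 2 lower calls became 1 without M0 replicate 1, M0 replicate 2 or M0 mock replicate 2 and 0 without M0 replicate 3 or M0 mock replicate 1. Mesothelial and fibroblast markers summed to between 49.3 and 90.8 CPM in M0 and between 87.7 and 141 CPM in mock-transfected M0, and their part in these differences was not tested. With library size alone 1181 genes were higher and 2395 lower, with 4 constitutive genes lower and 0 higher. In M1-like cells edgeR called no gene between mock-transfected and untransfected cells (0% of 14172), DESeq2 called none either, and at an unadjusted p under 0.05 there were 2 members, both lower. The inducible genes were between -0.09 and 0.08 on the log2 scale there.

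The difference between M1-like and M0 cells was therefore also measured after mock transfection. Psmb8 was at 261, 320 and 318 CPM in mock-transfected M1-like cells and at 123, 131 and 169 CPM in mock-transfected M0. Its log2 fold change was 1.09 ± 0.11, and those of Psmb9, Psmb10, Psme1 and Psme2 were 1.63 ± 0.13, 0.49 ± 0.15, 0.33 ± 0.11 and 1.06 ± 0.18, all called by edgeR (30.3% of all genes were called higher and 30.0% lower). The summed pair of Psme2 and Psme2b gave 0.88 ± 0.12. Mesothelial and fibroblast markers summed to between 87.7 and 141 CPM in mock-transfected M0 and between 9.41 and 16.9 CPM in mock-transfected M1-like cells, and B cell markers to between 6.01 and 33.2 CPM and between 0.979 and 2.36 CPM, and their part was not tested. The groups of Psmb10 overlapped, with 162, 227 and 244 CPM against 124, 150 and 178 CPM. Each mock-transfected M1-like library was above the mock-transfected M0 library of the same replicate number. Without M0 mock replicate 1 the 5 inducible calls became 3. Of the constitutive genes 18 were higher and 2 lower, with a median of 0.23. The leading names were again Psma5 (1.84 ± 0.23), Psmb3 (0.70 ± 0.13) and Psma1 (0.59 ± 0.07) above 0 and Psmc5 (-0.45 ± 0.10) and Psmd1 (-0.32 ± 0.08) below it. All 7 alpha subunits were called higher here, and Psmb5 was called too (0.55 ± 0.11, edgeR adjusted p = 6.06e-05). Scaling by library size alone moved the median of all genes to 0.23 and that of the constitutive genes to 0.44, a distance of 0.21, and gave 6372 genes higher and 2990 lower in place of 4299 and 4257.

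The change of the M1-like effect with mock transfection was tested as an interaction in the same edgeR model, where 9.07% of all genes were called in either direction. It was below 0 for Psmb8 (-0.64 ± 0.15, adjusted p = 0.00524), Psmb9 (-0.63 ± 0.19, adjusted p = 0.0266), Psme1 (-0.61 ± 0.16, adjusted p = 0.0128), Psme2 (-1.01 ± 0.27, adjusted p = 0.0137) and Psme2b (-0.62 ± 0.17, adjusted p = 0.0211). Psmb10 had nearly the same value, -0.63 ± 0.21, and did not pass by edgeR (adjusted p = 0.0554), but DESeq2 called it (-0.64, adjusted p = 0.0273), as did edgeR with RLE size factors (adjusted p = 0.0468) and with other filters. With library size alone it did not pass (adjusted p = 0.104). Psmb5 was the only member called above 0 (0.49 ± 0.15, adjusted p = 0.0375), and the other 30 constitutive genes were not called. The 5 calls below 0 became 2 without M0 replicate 3 and 3 without M0 mock replicate 3 or M1 mock replicate 1, and the call of Psmb5 was lost when M0 replicate 3, M0 mock replicate 1 or 2, M1 replicate 1 or 2 or M1 mock replicate 2 or 3 was left out. With library size alone 3 members were called below 0 and 2 above it, with 594 and 1134 of all genes. For M2-like cells the same interaction was called for no member by edgeR (5.66% of all genes) or DESeq2, with 2 constitutive genes above 0 and 1 inducible gene below 0 at an unadjusted p under 0.05.

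Transcript balance was followed as the ratio of each inducible catalytic gene to the constitutive gene at the same site, per kilobase of transcript. Replacement of subunits in the protein complex was not measured. At 24 h the ratio of Psmb8 to Psmb5 was 0.588, 0.568 and 0.537 in M0 and 2.495, 2.39 and 2.68 in M1-like cells. That of Psmb9 to Psmb6 was 0.112, 0.106 and 0.104 in M0 and 0.311, 0.313 and 0.351 in M1-like cells. That of Psmb10 to Psmb7 was 0.713, 0.680 and 0.604 in M0 and 1.49, 1.45 and 1.92 in M1-like cells. All 3 ratios were thus apart, by 4.47, 3.02 and 2.41 times in the geometric mean, but 3 cultures against 3 cannot go below p = 0.10 in an exact permutation test. In the reprogramming experiment M1-like and M0 cells were compared with labels permuted within the untransfected and within the mock-transfected libraries, a test of 12 libraries and 3 pairs. The replicate numbers of the libraries were not used in that test. The log2 ratio was higher in M1-like cells by 1.11 for Psmb8 over Psmb5, by 1.90 for Psmb9 over Psmb6 and by 0.80 for Psmb10 over Psmb7 (two-sided exact permutation test, each p = 0.005, the smallest of 400 arrangements, adjusted p = 0.005). Without transfection the differences were 1.66, 2.09 and 1.12, and after mock transfection 0.55, 1.72 and 0.48. Psmb9 stayed below Psmb6 in every condition, with geometric means between 0.0882 in M2-like cells and 0.502 in mock-transfected M1-like cells. Transcript windows of 50 bases shared with other genes made up 57.1% for Psmb5, 28.1% for Psmb7 and 12.5% for Psmb9. For windows of 150 bases, the read length of the reprogramming experiment, the shares were 7.07%, 11.1% and 5.24%. Levels compared between these genes carry that uncertainty. In M0 the geometric mean of Psmb8 over Psmb5 was 0.564 at 24 h and 1.175 in the reprogramming experiment. The part of shared sequence in that difference was not tested.

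**Figure D4:**
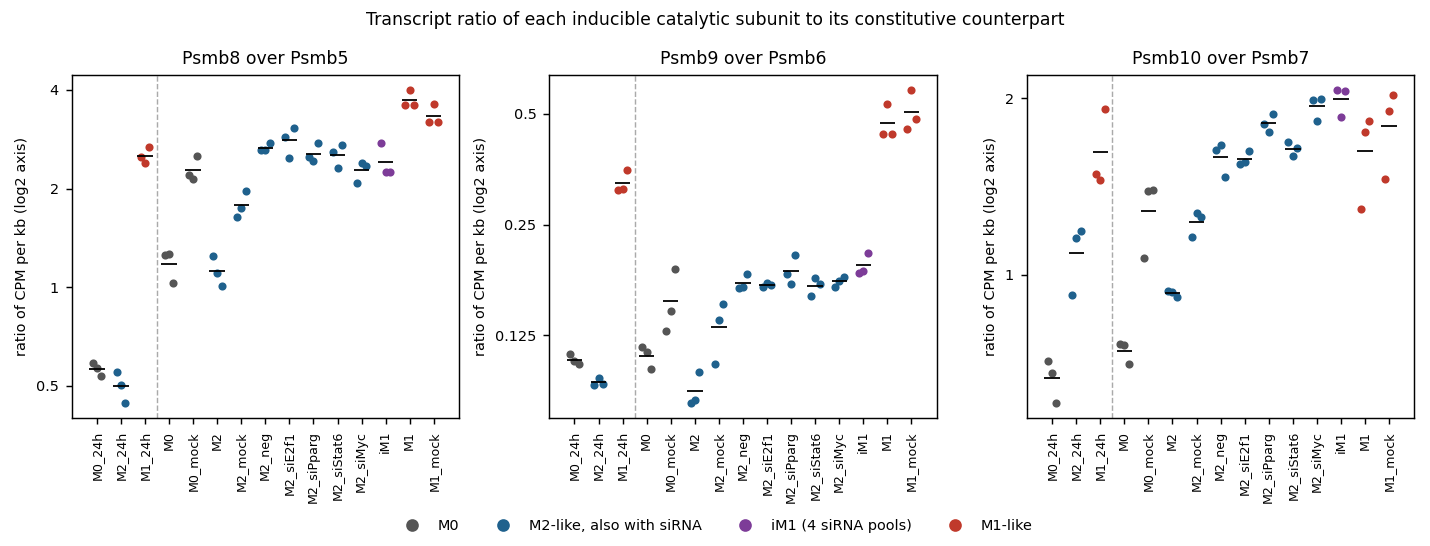
Ratio of each inducible catalytic gene to the constitutive gene at the same site, per kilobase of transcript (log2 axis), with 1 point per replicate in the 15 conditions and a bar at the arithmetic mean. The geometric mean of Psmb8 over Psmb5 goes from 0.564 in M0 to 2.52 in M1-like cells at 24 h, and Psmb9 over Psmb6 stays below 1 in every library.

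M2-like cells were the starting point of the knockdowns, so each step of transfection was set out in them. Mock-transfected cells were kept in medium without IL-4 until harvest. In the step from untransfected to mock-transfected cells, transfection, time in culture and removal of IL-4 therefore cannot be told apart. The 5 inducible genes summed to 318 ± 29.5 CPM in M2-like cells (SD, n = 3), 468 ± 55.5 after mock transfection, 675 ± 12.5 in M2 neg and 793 ± 72.3 in iM1, beside 896 ± 119 in untransfected M1-like cells. With mock transfection Psmb8 went from 84.9, 77.5 and 86.9 to 116, 124 and 143 CPM (log2 fold change 0.62 ± 0.11, edgeR adjusted p = 0.000316). Psmb9 (0.65 ± 0.14) and Psme1 (0.56 ± 0.12) were also called, where 1.67% of all genes were called higher, and no constitutive gene was by edgeR or DESeq2, with 3 higher at an unadjusted p under 0.05. Psmb10 had 0.46 ± 0.15 (adjusted p = 0.158) and Psme2 0.29 ± 0.21 (adjusted p = 0.777), and the summed pair with Psme2b was called with 0.69 ± 0.13 (edgeR adjusted p = 0.000523). Without M2 replicate 2 the 3 inducible calls became 1. The negative siRNA pool, compared with mock, came with a further difference. Psmb8 was at 197, 198 and 201 CPM in M2 neg (0.64 ± 0.11, edgeR adjusted p = 9.00e-05), with Psmb9 higher by 0.56 ± 0.13 and Psme1 by 0.53 ± 0.11, where 6.67% of all genes were called higher. Psmb10 at 0.42 ± 0.15 did not pass by edgeR (adjusted p = 0.0598) and was called by DESeq2 (0.41, adjusted p = 0.0465), and the summed pair did (0.43, edgeR adjusted p = 0.0182). The 4 constitutive genes that were higher were Psmc6 (0.36 ± 0.08), Psmd8 (0.31 ± 0.10), Psmb4 (0.30 ± 0.09) and Psma1 (0.22 ± 0.07), of which 0 remained called without M2 mock replicate 3 and 1 without M2 neg replicate 1 or replicate 2. The mesothelial and fibroblast markers summed to between 64.6 and 114 CPM in mock-transfected M2-like cells and between 122 and 181 CPM in M2 neg, and their part was not tested.

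The joint knockdown was compared with the negative pool. In iM1 cells 5 constitutive and 2 inducible genes were higher and none was lower, where 12.5% of all genes were higher. Psmb10 was at 245, 226 and 284 CPM against 196, 184 and 192 CPM in M2 neg (log2 fold change 0.40 ± 0.15, edgeR adjusted p = 0.0408). Psmb9 was at 109, 99.9 and 126 CPM against 89.5, 84.6 and 89.8 CPM (0.34 ± 0.13, edgeR adjusted p = 0.0495). Neither gene overlapped between the groups, and both lost their call without M2 neg replicate 1, 2 or 3, iM1 replicate 1 or iM1 replicate 3, which left 0 inducible calls. Psmb8 (0.17), Psme1 (0.05) and Psme2 (0.36 ± 0.18, adjusted p = 0.157) did not pass, and the summed pair with Psme2b did (0.35, edgeR adjusted p = 0.0331). The constitutive genes were Psmb5 (0.33 ± 0.11), Psma2 (0.29 ± 0.08), Psmd4 (0.28 ± 0.07), Psmc1 (0.26 ± 0.08) and Psma6 (0.24 ± 0.07). They became 3 without M2 neg replicate 1 or replicate 3 and 2 without iM1 replicate 3. With library size alone the medians of all genes and of the constitutive genes were 0.14 and 0.22, 3562 genes were higher and 1142 lower, and 15 constitutive and 4 inducible genes were called. The highest value of a member was that of Psmd10, the assembly chaperone known as gankyrin. It was at 34.4, 36.8 and 34.7 CPM in M2 neg and at 56.4, 58.1 and 69.2 CPM in iM1 (0.80 ± 0.09, edgeR adjusted p = 6.44e-08). The inhibitor Psmf1 was higher by 0.29 ± 0.07.

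Knockdown of Myc alone was called for 5 constitutive genes and no inducible gene, where 13.9% of all genes were higher. The highest constitutive values were those of Psmb5 (0.35 ± 0.11), Psmc1 (0.26 ± 0.08) and Psma2 (0.22 ± 0.08), and the 5 calls became 1 or 2 without any of the 3 M2 neg replicates (1, 2 and 1 in their order), 1 without M2 siMyc replicate 2 and 0 without its replicate 3. With library size alone 13 constitutive and 2 inducible genes were called, with 3779 genes higher and 1309 lower. DESeq2 called no inducible gene, and at an unadjusted p under 0.05 there was 1. Psmd10 was at 53.2, 52.7 and 62.3 CPM (0.67 ± 0.09, edgeR adjusted p = 1.12e-06), above all 3 libraries of M2 neg. The chaperone Psmd9 (0.25 ± 0.09), Psmf1 (0.24 ± 0.07) and the nuclear activator Psme3 (0.19 ± 0.07) were also called. This comparison shares its control libraries with that of iM1. Per the paper's methods the Myc siRNA came from Dharmacon and the E2f1, Pparg and Stat6 pools from siTools Biotech. Between the single knockdowns, target and supplier therefore cannot be told apart. Knockdown of E2f1, Pparg or Stat6 changed no member by edgeR, where 0.910%, 5.74% and 1.51% of all genes were called in either direction, and DESeq2 called no member either. At an unadjusted p under 0.05 there was 1 member higher with E2f1 siRNA, none with Pparg siRNA and 1 lower with Stat6 siRNA. Psmb8 was at 196, 198 and 209 CPM with E2f1 siRNA, at 198, 183 and 229 CPM with Pparg siRNA and at 189, 193 and 229 CPM with Stat6 siRNA, each range reaching into the 197 to 201 CPM of M2 neg.

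The members outside both classes differed among themselves. At 24 h 7 of the 9 tested were higher in M1-like than in M0 cells and 1 was lower, where 35.4% of all genes were higher and 37.5% lower. The nuclear activator Psme3 was among the 7 (log2 fold change 0.37 ± 0.05) and had -0.06 with library size alone, not called. Psme2b rose with Psme2 (log2 fold change 3.24 ± 0.08), Psmd10 was at 25.0, 25.9 and 25.9 CPM in M0 and at 84.0, 87.1 and 92.2 CPM in M1-like cells (1.78 ± 0.07), and Psmf1 (1.07 ± 0.06) and Psme4 (1.04 ± 0.08), the activator that acts in the nucleus, rose by about as much as the constitutive subunits. Psma8, the testis alpha subunit, was at 1.28, 1.53 and 1.82 CPM in M0 and at 0.621, 0.460 and 0.687 CPM in M1-like cells (log2 fold change -1.38 ± 0.23, edgeR adjusted p = 0.000173). In the reprogramming experiment it stood on the other side, at 1.98, 1.92 and 1.71 CPM in M0 and at 3.30, 3.15 and 4.04 CPM in M1-like cells (0.90 ± 0.23, edgeR adjusted p = 0.00121). Psma8 was near the lowest level at which a gene was tested in both, and the difference between the experiments was not tested.

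Genes that work with the proteasome were read from a pair of lists outside the rule. Of 20 assembly chaperones, shuttles and accessory proteins, 10 were higher and 5 lower in M1-like than in M0 cells at 24 h, with a median of 0.17, where 35.4% of all genes were higher and 37.5% lower. Pomp, the maturation protein of the 20S core, had a log2 fold change of 1.46, Adrm1, a ubiquitin receptor of the cap, 0.79, the protease Ddi2 -1.33 and the shuttle Ubqln2 -0.92. In the reprogramming experiment 9 were higher and 5 lower without transfection (29.0% and 28.7% of all genes) and 10 and 3 after mock transfection (30.3% and 30.0%). Of 6 genes of class I presentation outside the proteasome (Tap1, Tap2, Tapbp, Erap1, Nlrc5 and B2m, the light chain of the class I molecule), all 6 were higher in M1-like cells in each of these comparisons, led at 24 h by the transactivator Nlrc5 (4.78) and the peptide transporter Tap1 (4.75). All 6 were also higher with mock transfection in M0 (11.7% of all genes) and in M2-like cells (1.67%) and with the negative pool against mock (6.67%), and all 6 had an interaction of M1-like polarization with mock transfection below 0 that passed the threshold (9.07% of all genes in either direction). In iM1 against M2 neg 2 of the 6 were called higher (12.5% of all genes), Tap1 with 0.66 and Tap2 with 0.35.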

How the data were processed

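RNA-seq was measured in 54 libraries. Per the labels and methods, the authors trimmed reads with Trimmomatic, aligned them with TopHat2 to mm10 and deposited raw counts per Ensembl gene from featureCounts. Versions, annotation, strand and multi-mapping settings are not given in the sources used here. Gene names and lengths came from GENCODE M21.

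Technical libraries of a culture were summed. Genes were tested with edgeR 4.0.16 in R 4.3.3 (TMM, filterByExpr, quasi-likelihood F test), with all conditions of an experiment in 1 model and Benjamini-Hochberg adjustment over all genes tested, and called at an adjusted p of 0.05. CPM used TMM library sizes. The test was checked on simulated counts. Alternatives were DESeq2 1.42.0, RLE factors, library size alone, other filters, the compared groups only, a replicate block, mock as reference and leaving out each replicate. The members and gene lists were chosen with earlier results of these data known. Named were the 5 inducible and 3 constitutive catalytic genes, per comparison at most 3 constitutive genes per direction with the largest change among those called, the other members, and 2 called genes of each list per direction. Further constitutive genes, among them those called for M2 neg and iM1, and single markers were named after their values were seen. Depth limits genes of a few CPM, and no interval beyond the SE or SD was computed. In the 24 h experiment the groups share mice: deviations of cultures from the same mouse correlated with a median r of 0.295 (lowest -0.04, 9 pairs, 9505 genes) against -0.15 between mice.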

Additional observations from a re-analysis of the deposited data

Results flagged for a closer look

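Of the members, 6 had an effect of M1-like polarization that differed between untransfected and mock-transfected cells by the interaction test of edgeR. The difference of the log2 fold changes was -0.64 for Psmb8, -0.63 for Psmb9, -0.61 for Psme1, -1.01 for Psme2, -0.62 for Psme2b and 0.49 for Psmb5. With counts of Psme2 and Psme2b summed, an alternative chosen after seeing the data, it was -0.63 (edgeR adjusted p = 0.0175).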

How the results depend on the processing

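Of the values of named genes that were called, 909 kept their call, 26 lost it and 3 changed sign under alternatives other than leaving out a replicate, and with a replicate left out 675 kept it and 111 lost it. Of those not called, 76 passed in the same direction and 7 in the other under the former, and 9 passed with a replicate left out. The changes of sign with library size alone were Psme3 (-0.057 for M1-like against M0 and -0.25 against M2-like cells at 24 h), Psmd5 (-0.044 for the latter) and Psmb7 (0.21, M1 mock against M0 mock). With M2 mock as the reference they were Psme1 (0.50 with Myc, 0.45 with Pparg and 0.47 with Stat6 siRNA), Psmb9 (0.53 with E2f1 siRNA) and Psme2b (0.41 with E2f1 and 0.43 with Pparg siRNA). The causes were not tested. Depth limits Psme2, Psma5 and Psmb3 in the reprogramming experiment, Psmc3ip at 24 h and Psma8 in both experiments. Reads shared with near-identical copies limit Psme2, Psma5, Psmb3 and Psmb5 further.

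Scaling by library size alone called 1 constitutive gene lower in M1-like cells against M2-like ones at 24 h, 7 lower in M2 against M0, 1 lower in M1 mock against M0 mock, 0 higher and 4 lower in M0 mock against M0, 15 constitutive and 4 inducible genes higher in iM1 against M2 neg, and 13 and 2 in siMyc against M2 neg; it gave 2 members above 0 and 3 below 0 in the interaction of M1-like polarization with mock transfection and 2 above 0 in that of M2-like polarization. RLE size factors gave 1 constitutive gene lower in M0 mock against M0 and 1 inducible gene in iM1. DESeq2 called 1 constitutive gene higher in M2 against M0. Without the filter, 1 was lower in M2 against M0, 0 higher and 1 lower in M0 mock against M0, and 2 constitutive and 1 inducible genes were higher in siMyc. With the compared groups alone, M0 mock against M0 had 0 higher and 1 lower, and siMyc 8 constitutive and 2 inducible genes.

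With M2 mock as the reference in place of M2 neg, constitutive and inducible genes called higher were 16 and 5 for iM1, 14 and 5 for siMyc, 3 and 3 for siE2f1, 3 and 4 for siPparg and 5 and 4 for siStat6. The replicate numbers of the reprogramming experiment were used as a block as an alternative. Deviations of libraries with the same number correlated with a median r of 0.186 (lowest -0.29, 198 pairs), against -0.0869 between numbers (396 pairs). Of 36 libraries, 35 correlated best with one of their own number. The labels do not say what libraries of a number share. The block gave 1 constitutive gene higher in M2 against M0, 1 lower in M2 mock against M0 mock, 2 higher in M0 mock against M0, 1 constitutive gene lower and 1 inducible gene higher in siMyc, 1 lower in siStat6 and 1 member above 0 in the interaction of M2-like polarization. It called 13 members higher and 2 lower in siMyc against M2 neg in place of 9 and 0. It also called Psmb10 in the interaction of M1-like polarization (-0.61, adjusted p = 0.00807), in M2 mock against M2 (0.45) and in M2 neg against M2 mock (0.43), and the catalytic Psmb6 in M1 against M0 (0.17, adjusted p = 0.0161). With the mouse as a block in the 24 h experiment 22 members in place of 23 were higher with IL-4 and no other member's call changed.

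With 1 library left out, counts ranged from 1 to 2 (inducible higher, M2 against M0 at 24 h), 2 to 4 (constitutive lower, M1 against M0), 0 to 1 higher and 0 to 2 lower (M2 against M0), 3 to 5 (inducible, M1 mock against M0 mock), 0 to 1 (constitutive higher, M2 mock against M0 mock), 0 to 1 higher and 0 to 2 lower (constitutive, M0 mock against M0), 1 to 3 (inducible, M2 mock against M2), 0 to 4 (constitutive, M2 neg against M2 mock), 2 to 5 constitutive and 0 to 2 inducible (iM1), 0 to 4 constitutive higher and 0 to 1 lower (siMyc), 0 to 1 above and 2 to 6 below 0 (interaction of M1-like polarization) and 0 to 1 above 0 (that of M2-like polarization). All other counts of constitutive and inducible genes stayed within 1.5 times under each alternative run, and the 3 catalytic ratios kept their sign.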
